A study of Oryza sativa with 60 samples.

Results

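Rubisco small subunits and 5 other nuclear-encoded proteins of carbon fixation were followed through rice development. The 10 genes were the 5 copies of RbcS, which encodes the small subunit of Rubisco, and the genes of Rubisco activase, phosphoribulokinase (PRK), sedoheptulose-1,7-bisphosphatase (SBPase) and the GAPA and GAPB subunits of chloroplast glyceraldehyde-3-phosphate dehydrogenase. They were taken by identifier from a table of 38978 genes, not by a cut on a measured value. Earlier results of these data were known when they were chosen. All 10 reached 1 TPM, a transcript abundance normalized for gene length and depth, in at least 2 libraries. The study used the cultivar Nipponbare and bisulfite-induced deletion sequencing (BID-seq), in which bisulfite makes reverse transcriptase skip pseudouridine (Ψ) and the modified share of a uridine is read from deletions in the reads. Its 60 samples, 24 untreated inputs and 36 treated libraries, came from 12 groups with 2 inputs and 3 treated libraries each. The groups were plumule (the embryonic shoot) and radicle (the embryonic root), each from darkness and from light, seedlings at 8 days and at 2 weeks, flag leaf, panicle and straw at heading, and embryo, endosperm and flag leaf 10 days after anthesis (10 DAA). The labels name no mutant or transgene, and do not say whether replicates came from separate plants, so p-values measure only the spread between these samples.

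The Calvin cycle fixes carbon dioxide in the chloroplast stroma. Rubisco joins carbon dioxide to ribulose-1,5-bisphosphate, and its holoenzyme combines large subunits made in the chloroplast with small subunits made from nuclear RbcS genes and imported. Rubisco activase removes sugar phosphates that block the active site. GAPA and GAPB subunits form the dehydrogenase of the reduction phase, SBPase acts in the regeneration of the carbon acceptor, and PRK completes that regeneration by phosphorylating ribulose 5-phosphate. The RbcS copy on rice chromosome 2 is known as a form with little expression in leaf blades, whereas the copies on chromosome 12 supply the leaf enzyme.

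In the rice assembly IRGSP-1.0 the RbcS copy Os02g0152400 lay on the plus strand of chromosome 2 (2874951 to 2876254). The other 4 copies lay on chromosome 12, Os12g0274700 on the minus strand (10080505 to 10081588) and Os12g0291100 (11262587 to 11263636), Os12g0291400 (11277247 to 11278306) and Os12g0292400 (11320409 to 11322505) on the plus strand. Activase was Os11g0707000 (chromosome 11, 28932977 to 28936031, minus strand) and PRK was Os02g0698000 (chromosome 2, 28701864 to 28704291, plus strand). SBPase was Os04g0234600 (chromosome 4, 9075141 to 9077888, minus strand), GAPA was Os04g0459500 (chromosome 4, 22937162 to 22939010, plus strand) and GAPB was Os03g0129300 (chromosome 3, 1662306 to 1665491, plus strand). Exons, introns and untranslated regions of these spans were not analysed here.

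The site table placed 37 of its 9126 Ψ sites in 9 of the 10 genes. The sequences shown are those of the sites that recur between genes, the site with the highest passing fraction, a GAPB site that passed in 5 tissues and the site of the RbcS copy on chromosome 2, each with the 3 bases on either side, 5′ to 3′ on the gene's strand, and the modified base as a capital T.
Os12g0291100, chr12:11263269, plus strand: ggtTgcg
Os12g0291400, chr12:11277932, plus strand: ggtTgcg
Os12g0274700, chr12:10080998, minus strand: aggTcgg
Os12g0291400, chr12:11277708, plus strand: aggTcgg
Os03g0129300 (GAPB), chr3:1664448, plus strand: aggTcgg
Os04g0234600 (SBPase), chr4:9076947, minus strand: atgTagg
Os03g0129300 (GAPB), chr3:1663783, plus strand: tgcTcgg
Os02g0152400, chr2:2875770, plus strand: tgcTctg
The 7 bases ggtTgcg were the same in both RbcS copies, at base 683 of the span of Os12g0291100 and at base 686 of that of Os12g0291400, and occurred at 11 sites of the whole table. The 7 bases aggTcgg were shared by 3 of the genes and occurred at 52 sites of the table.

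The 24 libraries of the expression table held between 2109737 and 9006629 read equivalents. Between 49.3% and 70.1% of their values corresponded to whole reads. Read equivalents of the 4 RbcS copies on chromosome 12 were whole in only 3 to 7 of the 24 libraries, against 7 for GAPA, 8 for GAPB, 10 for activase and 18 or 19 for the other 3 genes. The counting was not given in the sources used here, so the split of reads between these 4 RbcS copies is uncertain. The endosperm, embryo, root and floral marker lists were highest in the tissue of their name, with floral genes at 699 and 740 TPM in panicle and at most 23.4 TPM elsewhere. The 2 chlorophyll-binding genes of the leaf list were highest in 8-day seedlings (9590 and 10255 TPM), and in flag leaf at heading (1951 and 1997 TPM) they lay below light-grown plumule (2742 and 2729 TPM) and panicle (2174 and 2111 TPM). A library that stood apart was radicle light replicate 1, where 4 endosperm genes summed to 17988 TPM, against 4.12 TPM in replicate 2 and 24543 and 25601 TPM in endosperm, while the 2 root genes summed to 2305 TPM against 5251 TPM in replicate 2. In this library each of the 10 genes had a level between that of replicate 2 and those of endosperm, and chlorophyll-binding genes stood at 886 TPM against 19.2 TPM. Because the groups shared the estimate of the spread, this library widened the error in every comparison, so each test is given with all libraries first and then without it. The part of the library in any result beyond these values was not tested. The paired libraries of plumule in the dark, plumule in the light and endosperm differed by no more than sampling noise, and each pair was counted as 1 sample.

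The summed level of the 5 RbcS copies ordered the groups from green organs to the dark radicle. It was 16223 and 17324 TPM in 8-day seedlings, 14456 and 15698 TPM in flag leaf at heading and 10330 and 9715 TPM in 2-week seedlings. Panicle (6855 and 7259 TPM) and flag leaf at 10 DAA (6867 and 6797 TPM) overlapped, and straw followed with 6080 and 6267 TPM. Plumule reached 1635 and 1609 TPM in the light and 758 and 721 TPM in the dark. Embryo (967 and 947 TPM) lay just above endosperm (902 and 871 TPM), a difference of 0.11 log2 units that did not pass the test (limma adjusted p = 0.893, and 0.135 without radicle light replicate 1). Radicle was lowest, with 384 and 130 TPM in the light and 51.2 and 51.8 TPM in the dark. Some of these genes headed the table in seedlings. Os12g0291100 ranked 1 of all genes in both libraries of 8-day seedlings and activase ranked 1 in both libraries of 2-week seedlings. Others ranked lower, such as PRK at 363 and 374 in 8-day seedlings and Os02g0152400 at 25526 and 24970 in flag leaf at heading. The 10 genes together made up 1.99% and 2.10% of all TPM in 8-day seedlings and 0.00601% and 0.00579% in dark radicle.

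**Figure D1:**
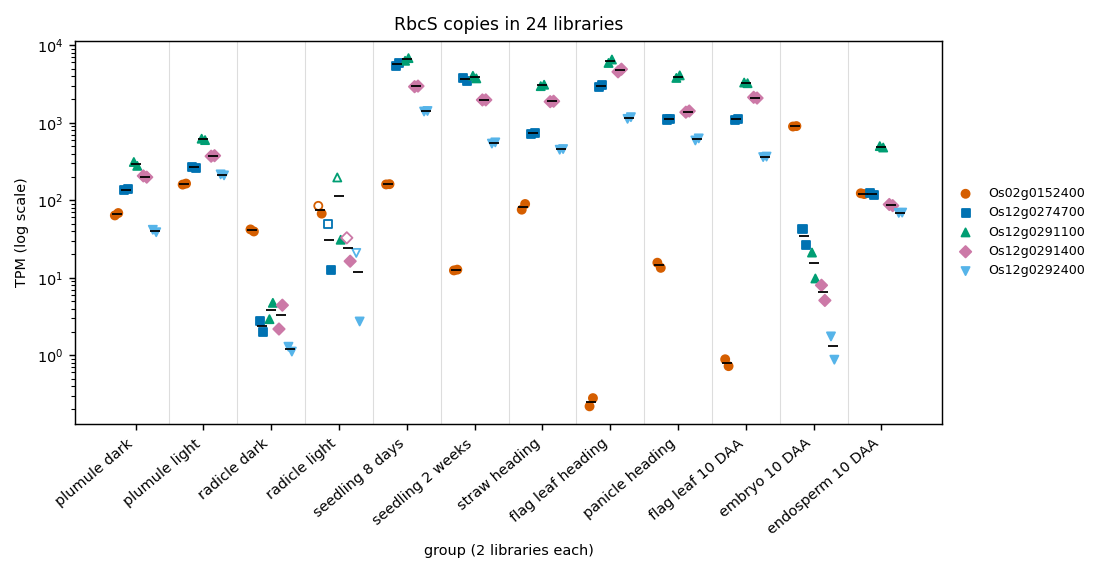
TPM of the 5 RbcS copies (log axis) in the 2 libraries of each of 12 groups, with black bars at group means and open symbols for radicle light replicate 1. The 4 copies of chromosome 12 were highest in seedlings and flag leaf, while Os02g0152400 was highest in embryo at 893 and 904 TPM and lowest in flag leaf at heading at 0.219 and 0.280 TPM.

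The RbcS copy on chromosome 2 followed another course than the rest. Os02g0152400 stood at 893 and 904 TPM in embryo, at 160 and 161 TPM in 8-day seedlings, at 159 and 164 TPM in light-grown plumule and at 123 and 120 TPM in endosperm. It was lowest in the flag leaf, with 0.219 and 0.280 TPM at heading, which is 1 read in each library, and 0.888 and 0.724 TPM at 10 DAA, which is 4 and 3 reads. The exact Poisson 95% intervals at heading reached up to 1.22 and 1.56 TPM and cover counting error only. Across the 12 group means of log2(TPM + 1), with replicate 2 alone for light-grown radicle, its Pearson correlation with the other 9 genes lay between -0.589 and -0.436. Among those 9 genes the 36 pairwise correlations lay between 0.875 and 0.989, with a median of 0.96. These correlations describe 12 shared group means.

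Expressed as shares, Os02g0152400 supplied 92.4% and 95.5% of the RbcS transcripts in embryo and 82.1% and 76.3% in dark radicle. In light-grown radicle it supplied 22.0% in replicate 1 and 51.8% in replicate 2. In plumule its share was 8.40% and 9.49% in the dark and 9.73% and 10.2% in the light, and in endosperm it was 13.6% and 13.8%. From the 8-day seedling onwards in vegetative tissue it held at most 1.43%, a value reached in straw, and in flag leaf at heading it held 0.00152% and 0.00178%. Both libraries of embryo and of dark radicle thus lay above every library of the other groups.

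**Figure D2:**
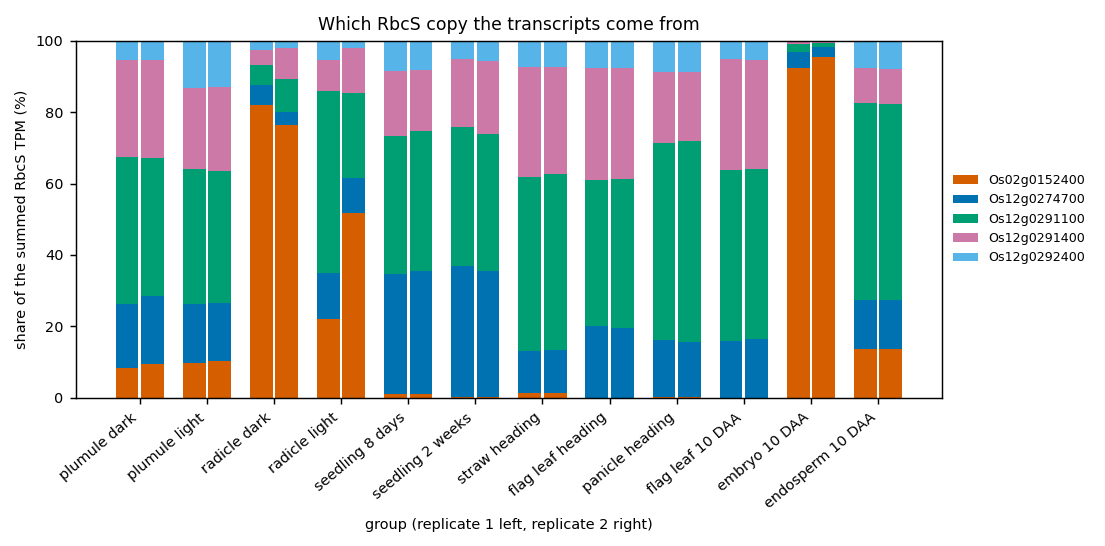
Share of the summed RbcS TPM (%) held by each of the 5 copies in each of the 24 libraries, replicate 1 left and replicate 2 right. Os02g0152400 holds 92.4% and 95.5% in embryo and 82.1% and 76.3% in dark radicle, and Os12g0291100 holds the largest share in green tissues.

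Within chromosome 12 the leading copy was Os12g0291100, with 38.8% and 39.3% of the RbcS sum in 8-day seedlings, 40.8% and 41.6% in flag leaf at heading and 55.2% and 56.2% in panicle. Os12g0274700 came close in seedlings, with 33.6% and 34.5% at 8 days and 36.7% and 35.5% at 2 weeks, but held 11.9% and 11.8% in straw. Os12g0291400 held 31.3% and 31.2% in flag leaf at heading and 18.0% and 17.1% in 8-day seedlings. Os12g0292400, whose gene model of 1994 bases is longer than those of 939 to 999 bases of the other copies, held 13.2% and 13.0% in light-grown plumule and 5.48% and 5.37% in dark plumule. TPM divides by that length, so the level of this copy against the others depends on the gene model.

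**Figure D3:**
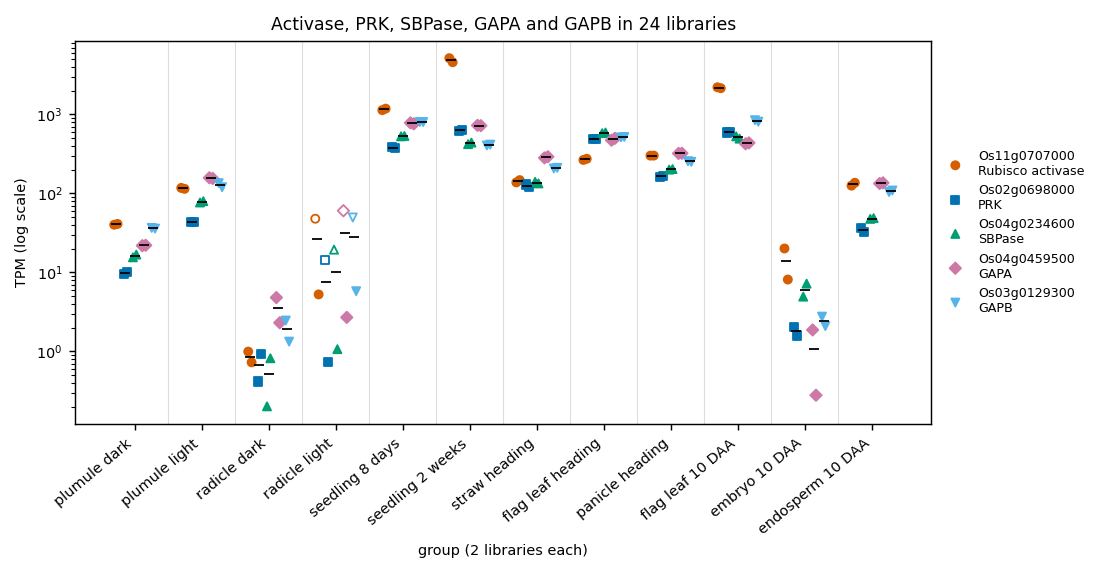
TPM of activase, PRK, SBPase, GAPA and GAPB (log axis) in the 2 libraries of each group, with black bars at group means and open symbols for radicle light replicate 1. Activase lies above the other enzymes in 2-week seedlings (5162 and 4582 TPM) and in flag leaf at 10 DAA (2208 and 2150 TPM), but not in flag leaf at heading (266 and 275 TPM). It also leads in 8-day seedlings (1134 and 1185 TPM), dark plumule (40.2 and 41.1 TPM) and embryo (20.1 and 8.14 TPM).

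The first comparison asked how light changed these transcripts in plumule. GAPA, a subunit of the plastid dehydrogenase, stood at 21.8 and 22.1 TPM in the dark and at 158 and 155 TPM in the light. The RbcS copy Os12g0292400 stood at 41.6 and 38.7 TPM in the dark and at 216 and 209 TPM in the light. SBPase stood at 15.5 and 16.8 TPM in the dark and at 76.9 and 79.8 TPM in the light. Each pair of libraries counted as 1 sample, so this test set 1 sample against 1, with the spread taken from the other groups. All 10 genes had a positive log2 change, the same in both fits. With all libraries in the fit only Os02g0152400 was called higher (log2 change 1.28 ± 0.17, SE, limma adjusted p = 0.000825), 1 of 10 against 6.18% of all genes tested. Without radicle light replicate 1, 8 of 10 were called higher against 14% of all genes, with a limma adjusted p of 5.88e-06 for Os12g0292400, 8.25e-05 for SBPase and 0.000953 for GAPA. The exceptions were Os12g0291100 (log2 change 1.05, limma adjusted p = 0.568 and 0.0657) and Os12g0291400 (0.88, limma adjusted p = 0.225 and 0.0554).

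The size of the plumule difference varied from gene to gene. On the log2(TPM + 1) scale it was 2.78 for GAPA, 2.38 for Os12g0292400, 2.21 for SBPase, 2.02 for PRK, 1.79 for GAPB, 1.49 for activase and 0.96 for Os12g0274700, with a median of 1.64 over the 10 genes and 0.13 over all genes tested. The ratio of GAPA to GAPB was 0.596 and 0.615 in the dark and 1.17 and 1.29 in the light. The 2 chlorophyll-binding genes of the leaf list moved with this contrast, from 197 and 189 TPM to 2742 and 2729 TPM, and their part in the result was not tested. As these were bulk samples, fewer cells of a type and less RNA per cell cannot be told apart, here or in the comparisons that follow.

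In radicle, 7 of the 10 genes were called higher in the light with all libraries in the fit, against 10.4% of all genes. Os12g0291100 was at 2.92 and 4.74 TPM in the dark and at 197 and 30.9 TPM in light replicates 1 and 2 (log2 change 4.07 ± 0.60, SE, limma adjusted p = 0.00071). Os12g0274700 was at 2.79 and 1.98 TPM in the dark and at 49.5 and 12.6 TPM in the light. Both light libraries lay above the dark libraries for these copies, but by very unequal amounts. Without replicate 1 the fit rests on a lone light library that is assumed to vary like the other groups. It called 7 of the 10 genes higher, against 14.9% of all genes, and the median log2 change of the 10 genes fell from 2.34 to 1.01. Os12g0291100 then changed by 2.75 (limma adjusted p = 0.000111) and activase by 1.76 (limma adjusted p = 0.00256). With only the groups compared in the fit, limma called 0 of the 10 genes and 0 of all genes, with 4 of the 10 and 13.9% of all genes at an unadjusted p under 0.05.

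PRK, SBPase and GAPA were the 3 genes not called in radicle. PRK was at 0.416 and 0.929 TPM in the dark and at 14.4 and 0.734 TPM in the light, SBPase at 0.202 and 0.820 TPM in the dark and at 19.4 and 1.07 TPM in the light, and GAPA at 4.81 and 2.31 TPM in the dark and at 60.5 and 2.70 TPM in the light. Light replicate 2 held 2 reads of PRK, 3 of SBPase and 7 of GAPA, so small differences were not detectable at this depth. The log2 change of GAPA was 1.78 with both light libraries and -0.24 without replicate 1 (limma adjusted p = 0.177 and 0.704).

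Whether light acted unequally on plumule and radicle depended on radicle light replicate 1. With all libraries, none of the 10 genes had a light effect that differed between the organs by limma (5.17% of all genes called). At an unadjusted p under 0.05, 3 of the 10 genes and 18% of all genes passed. Without that replicate, 6 genes differed against 13% of all genes called, of which GAPA, PRK, SBPase and Os12g0292400 had the larger effect in plumule and Os12g0291100 and Os12g0274700 the larger effect in radicle. Without light replicate 2 instead, 8 genes passed against 23.2% of all genes, and each had the larger effect in radicle.

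The dark radicle lay far below the dark plumule. Os12g0291100 was at 311 and 278 TPM in plumule and at 2.92 and 4.74 TPM in radicle (log2 change -5.96 ± 0.73, SE, limma adjusted p = 2.72e-05). Os12g0291400 was at 206 and 198 TPM in plumule and at 2.18 and 4.42 TPM in radicle (log2 change -5.61). Os02g0152400 fell least, from 63.7 and 68.4 TPM to 42.0 and 39.5 TPM (log2 change -0.68, limma adjusted p = 0.00207). With all libraries 9 of 10 genes were called lower, against 29% of all genes, and without radicle light replicate 1 all 10 were called lower, against 34.3%. The gene not called with all libraries was GAPA (log2 change -2.39, limma adjusted p = 0.0878 and 0.000172), and the root genes of the marker list ran from 302 and 305 TPM in plumule to 4639 and 5081 TPM in radicle.

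From light-grown plumule to 8-day seedling the transcripts of carbon fixation increased many-fold. Os12g0274700 went from 269 and 263 TPM to 5459 and 5970 TPM (log2 change 4.42 ± 0.52, SE, limma adjusted p = 6.17e-05), a 21.4-fold difference. Activase went from 118 and 114 TPM to 1134 and 1185 TPM, 9.92-fold, and PRK from 43.4 and 43.2 TPM to 385 and 375 TPM, 8.61-fold. With all libraries 8 of the 10 genes were called higher, against 14.3% of all genes, and without radicle light replicate 1, 9 were called higher, against 18.6%. Os02g0152400 did not pass in either fit, at 159 and 164 TPM in plumule and 160 and 161 TPM in seedlings (log2 change -0.01 ± 0.15, SE). GAPA passed only without that replicate (log2 change 2.30, limma adjusted p = 0.136 and 0.000458). The chlorophyll-binding genes went from 2742 and 2729 TPM to 9590 and 10255 TPM, and their part in the result was not tested.

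**Figure D4:**
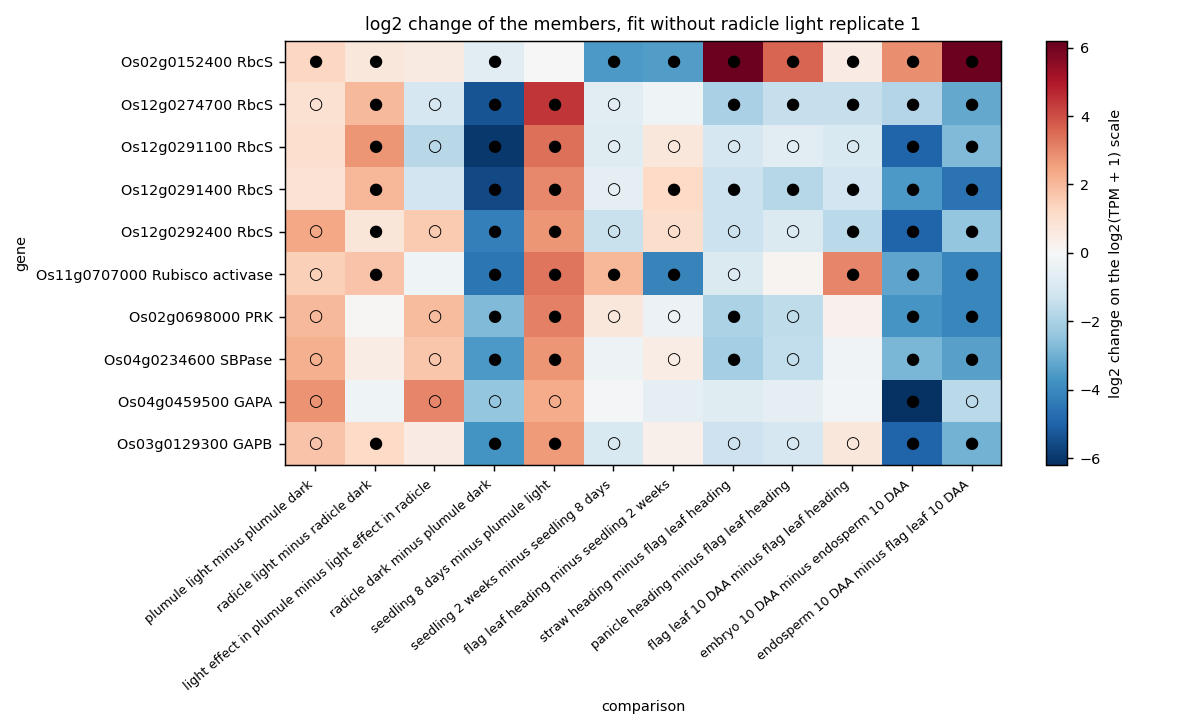
Colour gives the log2 change of each gene (rows) in each comparison (columns) on the log2(TPM + 1) scale, fitted without radicle light replicate 1. Filled circles mark genes called by limma with and without that library, and open circles genes called only without it. The top row, Os02g0152400, has the opposite colour to most other genes in straw, panicle, embryo and endosperm.

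Between 8 days and 2 weeks activase rose and Os02g0152400 fell in the seedlings. Activase was at 1134 and 1185 TPM at 8 days and at 5162 and 4582 TPM at 2 weeks (log2 change 2.07 ± 0.66, SE, limma adjusted p = 0.0214). Os02g0152400 fell from 160 and 161 TPM to 12.4 and 12.7 TPM (log2 change -3.57, limma adjusted p = 1.46e-09). The ratio of activase to summed RbcS TPM was 0.0699 and 0.0684 at 8 days and 0.500 and 0.472 at 2 weeks. With all libraries these were the 2 genes called, a smaller share than the 48% of all genes called. Leaving out any of the 4 seedling libraries ended the call of activase, with a limma adjusted p between 0.0689 and 0.0906, and left Os02g0152400 as the 1 gene called. Without radicle light replicate 1, 8 genes were called against 56.4%, with activase and PRK (385 and 375 TPM to 611 and 643 TPM) higher and the 5 RbcS copies and GAPB lower. GAPB was at 804 and 802 TPM at 8 days and at 405 and 415 TPM at 2 weeks, while GAPA was at 783 and 761 TPM at 8 days and 728 and 721 TPM at 2 weeks (log2 change -0.09 ± 0.88, SE, limma adjusted p = 0.969), so the ratio of GAPA to GAPB went from 0.975 and 0.949 to 1.80 and 1.74.

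In flag leaf at heading, activase stood 17.9-fold below its level in 2-week seedlings, at 266 and 275 TPM (log2 change -4.17 ± 0.66, SE, limma adjusted p = 0.000183). Os12g0291400 rose from 1968 and 1970 TPM to 4532 and 4903 TPM (log2 change 1.26 ± 0.28, SE, limma adjusted p = 0.00248). Os02g0152400 fell from 12.4 and 12.7 TPM to the 1 read per library given above (log2 change -3.44, between -5.19 and -2.96 over the other settings tried). With all libraries 3 of the 10 genes were called, below the 51.8% of all genes, and without radicle light replicate 1, 7 were called against 59.5%. In the second fit Os12g0291100, Os12g0292400 and SBPase were also higher in flag leaf and PRK lower (limma adjusted p = 0.0245).

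Activase varied widely among green samples. Its ratio to the RbcS sum was 0.0184 and 0.0175 in flag leaf at heading and 0.321 and 0.316 in flag leaf at 10 DAA. The level itself went from 266 and 275 TPM to 2208 and 2150 TPM over the same interval (log2 change 3.01 ± 0.66, SE, limma adjusted p = 0.00472), an 8.04-fold difference. Against PRK, an enzyme of the cycle itself, activase stood at 0.540 and 0.556 at heading and 3.73 and 3.58 at 10 DAA. The chlorophyll-binding genes went from 1951 and 1997 TPM to 4575 and 4515 TPM, and their part in the result was not tested.

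Over the same interval 3 RbcS copies were called lower with all libraries in the fit. Os12g0292400 fell from 1122 and 1180 TPM to 360 and 366 TPM (log2 change -1.66 ± 0.54, SE, limma adjusted p = 0.0389), Os12g0274700 from 2906 and 3083 TPM to 1085 and 1117 TPM (limma adjusted p = 0.0239) and Os12g0291400 from 4532 and 4903 TPM to 2126 and 2080 TPM (limma adjusted p = 0.0089). Leaving out any of the 4 flag leaf libraries ended the calls of Os12g0292400 and Os12g0274700 (limma adjusted p between 0.0855 and 0.143). Without replicate 2 of either group the call of Os12g0291400 was lost as well, so no RbcS copy was then called lower. With all libraries 5 of the 10 genes were called, 2 higher and 3 lower, against 26.9% of all genes. Without radicle light replicate 1, 7 were called against 36.2%, Os12g0291100 (5897 and 6532 TPM to 3295 and 3233 TPM, limma adjusted p = 0.0139) among the lower and GAPB (514 and 519 TPM to 847 and 810 TPM, limma adjusted p = 0.00249) among the higher. PRK, SBPase and GAPA passed in neither fit, with log2 changes of 0.27 ± 0.66, -0.20 ± 0.70 and -0.17 ± 0.88 (SE). The call of Os02g0152400 as higher rests on 1 read per library at heading and 4 and 3 reads at 10 DAA.

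At heading, 4 of the 10 genes were called lower and 1 higher in straw than in flag leaf, and 2 were called lower and 1 higher in panicle. Without radicle light replicate 1, 8 were called lower and 1 higher in straw and 7 lower and 1 higher in panicle. Os12g0274700 was at 2906 and 3083 TPM in flag leaf, at 724 and 741 TPM in straw (log2 change -2.03, limma adjusted p = 0.00147) and at 1100 and 1125 TPM in panicle (-1.43, limma adjusted p = 0.0117). SBPase was at 579 and 591 TPM in flag leaf, at 140 and 134 TPM in straw (-2.09, limma adjusted p = 0.0249) and at 200 and 204 TPM in panicle (-1.53, limma adjusted p = 0.0809 and 6.7e-06 without radicle light replicate 1). Leaving out any of the 4 libraries compared ended the call of SBPase in straw (limma adjusted p between 0.0808 and 0.0915). That of Os12g0274700 in panicle was lost without flag leaf replicate 2 or panicle replicate 1 (0.0553 and 0.0538). Os02g0152400 alone was higher in both, at 75.5 and 89.4 TPM in straw and 15.6 and 13.4 TPM in panicle. In straw 5 of the 10 genes were called with all libraries, a share near the 51.5% of all genes, and 9 without radicle light replicate 1, against 58.8%. In panicle 3 were called, below the 57.3% of all genes, and 8 without that replicate, against 64.7%. Activase did not pass in panicle in either fit, at 301 and 301 TPM against 266 and 275 TPM in flag leaf (log2 change 0.16 ± 0.66, SE). Both comparisons share the flag leaf libraries.

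Among seed tissues the endosperm held more of 9 genes than the embryo. GAPA was at 134 and 136 TPM in endosperm and at 1.87 and 0.279 TPM, 7 and 1 reads, in embryo (log2 change -6.15 ± 1.08, SE, limma adjusted p = 0.000619). Os12g0291100 was at 499 and 479 TPM in endosperm and at 21.1 and 9.78 TPM in embryo (-4.99, limma adjusted p = 0.000154). Os02g0152400 was the reverse, at 123 and 120 TPM in endosperm and at 893 and 904 TPM in embryo (2.88 ± 0.15, SE, limma adjusted p = 3.11e-08). All 10 genes were called between embryo and endosperm in both fits, against 43.3% and 52.4% of all genes. With only these groups in the fit, limma called 4 of them, against 26.4% of all genes. The 2 chlorophyll-binding genes moved with these 9, at 1855 and 1825 TPM in endosperm and 31.4 and 17.8 TPM in embryo, and their part in the result was not tested.

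Endosperm in turn lay below flag leaf of the same day. Os12g0291400 was at 88.1 and 85.2 TPM in endosperm against 2126 and 2080 TPM (log2 change -4.59 ± 0.35, SE, limma adjusted p = 2.62e-07), and activase at 126 and 137 TPM against 2208 and 2150 TPM (-4.04, limma adjusted p = 0.000914). Os02g0152400 was higher in endosperm, and GAPA was closest, at 134 and 136 TPM against 425 and 437 TPM (-1.67, limma adjusted p = 0.21 and 0.00186 without radicle light replicate 1). With all libraries 9 genes were called against 59.9% of all genes, and without that replicate 10 against 65.4%.

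Genes with the pattern most like the mean of the 10 genes were sought among genes that reached 100 TPM in at least 1 group. The pattern ran over the 12 group means of log2(TPM + 1), with replicate 2 alone for light-grown radicle. The 5 closest were Os05g0560000 (Pearson r = 0.995), Os07g0148900 (0.995), Os08g0119800 (0.994), Os06g0320500 (0.993) and Os02g0581100 (0.992). Of the 10 genes themselves, Os12g0291100 correlated at 0.986 with that mean, activase at 0.942 and Os02g0152400 at -0.448. Each of the 10 genes is part of that mean and the 5 others are not, so the 2 sets of values are not alike. These values describe 12 shared group means, and other Calvin cycle genes were not analysed here.

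The Ψ fractions describe the modification of these transcripts, as 1 value per site and tissue in which the authors pooled the replicates, with unknown depth and no replicate error. Activase held 9 of the 37 sites, and 9 or more were found in 0.536% of the 5033 genes with sites. Os12g0291100 held 7 sites, GAPB 6, SBPase and Os12g0291400 4 each, PRK, GAPA and Os12g0274700 2 each and Os02g0152400 1. Os12g0292400 held none. A flag of the authors marked 90 values of these sites, over 11 tissues, as passing their filter, and plumule in the dark had no such flag.

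**Figure D5:**
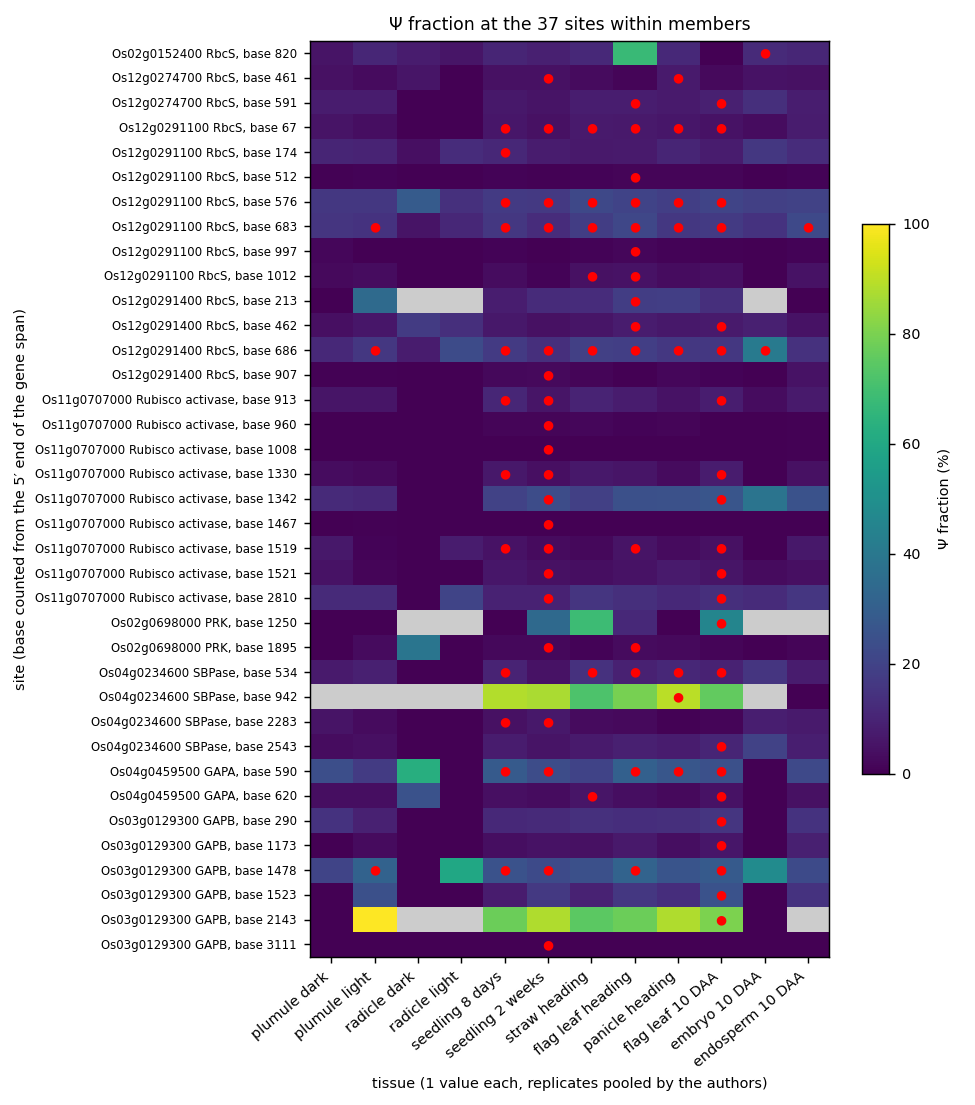
Ψ fraction (%, colour) at the 37 sites, named by gene and base from the 5′ end of the span, in 12 tissues, with red dots where the site passed the authors' filter and grey where no value was given. Most rows are dark, with passing values at a median of 10.8%, and the dots gather in seedlings and flag leaf, from 12 to 22 sites a tissue, with 0 in radicle.

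Most of the passing values were low. Their median was 10.8% against 19.6% over all passing values of the table, and 75.6% of them (68 of 90) lay under 20%, against 50.8% in the table. In the context with G before and A after the site lay 8 of the 37 sites, 21.6% against 6.15% of all sites. The median over these sites of each site's median passing fraction was 4.004%. These site medians ran from 1.43% to 89.6%, with the SBPase site at chr4:9076947 highest and a PRK site at 45.6%. Only 2 passing values reached 50%, the SBPase site at chr4:9076947 with 89.6% in panicle and the GAPB site at chr3:1664448 with 80.3% in flag leaf at 10 DAA. The SBPase site also read between 72.1% and 88.6% in both seedlings, straw and both flag leaf groups without passing there, and 0 in endosperm. The GAPB site read between 74.8% and 99.7% in light-grown plumule, seedlings, straw, flag leaf at heading and panicle without passing, and 0 in dark plumule and embryo. It had no value in radicle or endosperm. Its value was the same in 8-day seedlings and flag leaf at heading (77.7%), and in 2-week seedlings and panicle (88.0%). The depth behind these values is unknown.

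The number of sites that passed varied widely between tissues. Of the 37 sites, 22 passed in flag leaf at 10 DAA (59.5% against 18.6% of all sites), 20 in 2-week seedlings (54.1% against 19.5%), 15 in flag leaf at heading (40.5% against 17.9%) and 12 in 8-day seedlings (32.4% against 12.6%). In these 4 tissues the 10 genes summed to 11377, 17087, 17427 and 20419 TPM in turn, the reverse of the order of site numbers. Most of each sum was RbcS, at 6832, 10022, 15077 and 16774 TPM, so the sum does not give the level of each gene with sites. Activase, which held 9 of the sites, stood at 2179, 4872, 270 and 1160 TPM in turn, and all 9 passed in 2-week seedlings. Panicle had 8 (21.6% against 17.6%) and straw 7 (18.9% against 18.7%), shares near those of all sites. Light-grown plumule had 3 (8.11% against 16.1%), embryo 2 (5.41% against 20.2%) and endosperm 1 (2.70% against 12.4%), shares below those of all sites. In dark and in light-grown radicle, where the genes summed to 59.0 and 361 TPM, none passed, against 26.3% and 20.3% of all sites. The depth at the sites was not used here, and its part in where they passed was not tested. Of the 37 sites 17 passed in 1 tissue, among them 3 activase sites in 2-week seedlings, and 3 passing values of the 10 genes were exactly 0.

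The 7 sites that passed in 5 or more tissues (18.9% of these sites against 9.66% of all sites) allowed a view across organs. The shared ggtTgcg site passed in 8 tissues in both RbcS copies. In Os12g0291100 it read 14.6% in light-grown plumule, 16.3% in 8-day seedlings, 12.8% in 2-week seedlings, 18.1% in straw, 21.1% in flag leaf at heading, 16.1% in panicle, 16.9% in flag leaf at 10 DAA and 22.2% in endosperm. In Os12g0291400 it read 16.1%, 16.9%, 13.4%, 18.8%, 18.5%, 16.2% and 16.1% in the first 7 of these tissues and 41.0% in embryo, where this copy stood at 8.00 and 5.10 TPM. Within the 7 tissues where both passed, the 2-week seedling was lowest for both copies. The split of reads between these copies is uncertain, as given above, and its part in these fractions was not tested.

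Further kinds of recurrence were seen at lower or steadier levels. The aggTcgg sites of Os12g0274700 and Os12g0291400 passed in the same 2 tissues, with 8.07% and 7.63% in flag leaf at heading and 8.75% and 7.29% in flag leaf at 10 DAA, far from the 80.3% of the GAPB site with the same 7 bases. The tgcTcgg site of GAPB passed in 5 tissues with 22.4% to 32.0%, and a GAPA site at chr4:22937751 (cgcTcgg) in 5 tissues with 23.2% to 30.5%. Of Os12g0291100, the sites at chr12:11263162 (agcTcga) and chr12:11262653 (ggcTatg) each passed in 6 tissues, with 16.4% to 21.6% and 4.62% to 7.22%. An SBPase site at chr4:9077355 (agaTcgg) passed in 5 tissues with 8.999% to 14.4%. The site of Os02g0152400 passed only in embryo, where that gene was highest, with 11.95%, and read 67.7% without passing in flag leaf at heading, where the gene had 1 read in each expression library.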

How the data were processed

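The authors purified polyadenylated RNA, mapped BID-seq reads to IRGSP-1.0 and pooled the replicates of a tissue, with gap ratios calibrated to a Ψ fraction of 0 to 1. The deposited site table held this fraction, printed here as a percent, with a filter flag for 11 of 12 tissues. The deposited TPM table, made by the authors from 24 libraries, does not say whether its columns are input or treated, and its aligner and counting, strand use included, were not given in the sources used here. No column of per-sample values was left out.

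TPM times gene length was converted to read equivalents, taking the commonest low value as 1 read (whole within at most 0.05). A pair of libraries that did not differ beyond sampling noise (chi-square p above 0.05 over genes with at least 10 read equivalents) entered as its mean. The chi-square p was 0.316 for plumule in the dark, 0.612 for plumule in the light and 0.0703 for endosperm. limma 3.58.1 in R 4.3.3 was fitted to log2(TPM + 1) of 29987 genes with at least 1 TPM in 2 or more libraries, with 12 groups in a shared fit, a trend in the variance and two-sided Benjamini-Hochberg adjustment over all genes at 0.05. A change on this scale understates that of low genes. The table holds TPM and no counts, so no count test was run. Shares, sites and figures used Python 3.11.15, pandas 2.3.3, SciPy 1.17.1 and matplotlib 3.10.9. The limma step was also run on simulated data, for panicle against flag leaf at heading only. Simulated libraries of a group shared the same mean, so none stood apart as radicle light replicate 1 does, and that case was not tested.

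All 10 genes were named. The genes most like them were the 5 with the highest Pearson r among genes of 100 TPM or more in a group. Sites were those within a gene's span on its strand. The genes and lists were chosen with earlier results of these data known. The marker lists for leaf, endosperm, embryo, root and floral organs were written by identifier from outside the supplied tables, and their genes are not named. The supplied RefSeq table matched 1 identifier of the expression table, so a list of further Calvin cycle genes, promoters and proteins were not analysed here. Each of PRK and the 4 RbcS copies of chromosome 12 has an overlapping gene on the opposite strand, at 3.15 TPM or less. In libraries where the gene reached 10 TPM, the overlapping gene had at most 6.82% of the reads of PRK and 0.418% of those of an RbcS copy. The share was not computed for libraries below 10 TPM, among them those of dark radicle and embryo for PRK.

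Alternatives were the pseudocount, the low-value filter, quantile normalization, a fit of only the compared groups, both libraries of every pair, the replicate number as a block, the 5 RbcS copies summed and each library left out. Leaving out radicle light replicate 1 in comparisons that do not use it was chosen after seeing the data.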

Additional observations from a re-analysis of the deposited data

Results flagged for a closer look

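Without radicle light replicate 1, 6 of the 10 genes had unequal light effects in plumule and radicle by limma. The log2 difference, plumule minus radicle, was 3.02 for GAPA (Os04g0459500), 1.95 for PRK (Os02g0698000), 1.72 for SBPase (Os04g0234600) and 1.62 for the RbcS copy Os12g0292400. It was -1.70 for Os12g0291100 and -1.06 for Os12g0274700, both RbcS copies of chromosome 12. The light-grown radicle is then a lone library with 2 reads of PRK, 3 of SBPase, 7 of GAPA and 9 of Os12g0292400. With both light libraries the limma adjusted p of these 6 genes lay between 0.129 and 0.995.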

How the results depend on the processing

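Leaving out radicle light replicate 1 moved the count by over 1.5 times in 6 of 12 comparisons. Over the settings that left out 1 library each, the number of the 10 genes called ran from 1 to 8 for light in plumule, from 0 to 8 for the difference of light effects, from 1 to 8 for 2-week against 8-day seedlings, from 3 to 7 for flag leaf at heading against 2-week seedlings, from 3 to 9 for straw, from 2 to 8 for panicle and from 2 to 7 for flag leaf at 10 DAA against heading. It ran from 5 to 10 for light in radicle, from 8 to 10 for dark radicle against dark plumule, from 6 to 9 for 8-day seedlings, and from 9 to 10 for each of embryo against endosperm and endosperm against flag leaf. In 2-week against 8-day seedlings leaving out any of the 4 libraries left 1 gene called and ended the call of activase, and in straw any of the 4 left 3. Without radicle light replicate 2, the difference of light effects turned to -0.94 for Os12g0292400, -1.20 for PRK and -1.58 for SBPase, from 1.62, 1.95 and 1.72 without replicate 1 and 0.34, 0.37 and 0.07 with both. The cause was not tested. The share of all genes called is not given for most fits that left out 1 library, so their counts describe dependence on the libraries only.

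Fitting only the groups compared called 0 of the 10 genes for light in radicle, against 0% of all genes. Radicle light replicate 1 then sets the spread there. This fit called 9 for 2-week against 8-day seedlings (48.2% of all genes) and 9 for flag leaf at heading against 2-week seedlings (58.1%). It called 10 for straw (56.6%), 10 for panicle (64.3%), 8 for flag leaf at 10 DAA (30.3%) and 4 for embryo (26.4%). For light in plumule it could not be fitted, as each group counted as 1 sample. With both libraries of each pair entered, 7 genes were called for light in plumule, 3 for the difference of light effects and 5 for panicle. The fit with a replicate block gave the same counts of 7, 3 and 5. The share of all genes called is not given for these settings, for the summed copies or for the pseudocount. Replicate numbers did not pair the libraries, since the correlation of deviations over 66 pairs of groups lay between -0.054 and 0.031. With the 5 RbcS copies summed, 1 test of the sum stood for all 5 copies in the counts. The call in plumule was lost (0 called), and 1 was called for 2-week seedlings and 1 for flag leaf at heading. The 5 called for panicle were the 5 copies, all by that 1 test (limma adjusted p = 0.0129). The 5 called for embryo were the 5 other genes, as the sum did not pass there (limma adjusted p = 0.893). A pseudocount of 0.1 left 3 called in straw. No filter on low values changed 2 of 120 gene calls and quantile normalization 4, none of them in direction. Quantile normalization moved the share of all called genes that were higher from 69.8% to 49.2% for light in plumule, from 76.2% to 65.2% for the difference of light effects, from 62% to 45.8% for panicle and from 38% to 48.5% for endosperm. It moved the median of all genes from 0.13 to 0.01 in plumule, from 0 to 0.10 for flag leaf at heading, from 0.18 to -0.08 in panicle and from -0.18 to -0.01 in endosperm, and the median of the 10 genes from 1.64 to 1.48, 0.03 to -0.01, -0.97 to -0.87 and -3.06 to -2.87. Of the Ψ values, 47 passed and reached 10%, and 136 reached 10% whatever the flag.

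Fewer than 10 reads per library stand behind many radicle and embryo values, the split of reads between the 4 RbcS copies of chromosome 12 is uncertain, and no depth was used for the Ψ fractions. Tissue, age and light differ together between some groups and cannot be told apart there.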
